A study of Homo sapiens with 4 samples.

Results

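H929 is an established human multiple myeloma line, grown from a cancer of antibody-secreting plasma cells. The transcriptome of H929 cells labelled after sorting on a microfluidic chip was compared, gene by gene, with that of H929 cells labelled before sorting. The genes described are those listed at 1 FPKM or more (fragments per length of transcript and per size of library) in either of these libraries, which took in 11083 of the 60612 genes in the deposited table, 9262 of them protein-coding. Both groups came from the same line, with no treatment other than the sorting named in the labels, and each was 1 library of polyadenylated RNA. The series also holds KMS28BM, a second established myeloma line, with 1 library after and 1 before sorting and 10472 genes measured by the same rule. The labels name neither the chip nor the property the cells were sorted on. The series title appears to assign the suffixes the other way round, so every direction below follows the sample labels and would be turned round if the title were right.

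With 1 library on each side, no difference here has a replicate check, and no p-value was computed. Ratios are log2 of the FPKM plus 1 after sorting over the FPKM plus 1 before sorting, which understates the difference of low genes. Estimated depth was 22.8 M (mega) fragments after sorting and 24.8 M before. A level of 1 FPKM on a transcript of 2000 bases therefore stood for 45.6 fragments after sorting and 49.6 before. At least 1 FPKM was reached by 9740 genes after sorting and 10782 before. Of 12 plasma cell markers, 10 were at 1 FPKM or more in each library, with a summed level of 1120 FPKM after sorting and 2098 FPKM before, and 11 ratios were below 0. SDC1, the surface proteoglycan that defines plasma cells, was the exception, at 76.0 FPKM after sorting and 73.0 before. CD27 and FCRL5, with ratios of -0.42 and -0.02, were under 1 FPKM in both libraries. Of all measured genes, 41.7% had a ratio above 0. A single marker held much of both sums, at 589 FPKM after sorting and 1142 before. Its ratio was -0.95, or -0.48 once the trend with GC content and length described below was removed. None of the 5 B cell markers, which include MS4A1 and PAX5, reached 1 FPKM, and 4 of them were listed at the floor of the table in both libraries. Among markers of other cells, CD68 stood at 11.45 and 10.8 FPKM, COL6A3 at 10.9 and 13.6, ESAM at 9.61 and 7.00 and CFD at 13.0 and 7.52 FPKM after and before sorting. GZMB stood at 1.87 and 1.48 FPKM and KRT8 at 1.76 and 2.22 FPKM, each was the only marker of its cell type to reach 1 FPKM, and no marker of neutrophils or red cells did; their part in the differences below was not tested. In bulk RNA, fewer cells of a type and less RNA per cell cannot be told apart.

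Plasma cells devote much of their protein synthesis to immunoglobulin, which is folded, bridged by disulfide bonds and given N-linked sugars in the endoplasmic reticulum. IRF4, PRDM1 and XBP1 hold that identity in place, and myeloma cells depend on IRF4, which in turn sustains MYC and the growth genes under it. Cells have several stress programmes, each with its own transcription factor: HSF1 acts on chaperone genes, ATF4 on amino acid synthesis and uptake, and HIF on genes for low oxygen. Each of these programmes has well-known target genes, and their members are given below by what they do.

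Most genes were within 2-fold, and the lower side of the distribution was the wider one. The median ratio over all measured genes was -0.11, with the middle 50% of genes between -0.46 and 0.22, and 41.7% of genes had a ratio above 0. At 2-fold or more, 176 genes were higher after sorting (1.59% of those measured) and 573 were lower (5.17%). At 4-fold or more, 23 were higher and 36 lower. Trimmed-mean scaling put the median of all genes at 0.10 and gave 376 higher and 328 lower genes, so the excess of lower genes did not hold under that scaling. It raises the log2 ratio of an abundant gene by 0.26, so that ratios a little below 0 as deposited turn above 0, which holds for the counts of ratios above and below 0 in each group below.

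The ratio also moved with the level of the gene. Levels here are the higher of the values in both libraries. Genes between 1 and 2 FPKM had a median ratio of -0.27, those between 10 and 20 FPKM had 0.03, and those between 50 and 100 FPKM had 0.23. Counting error alone would give a typical standard error of 0.24 on the log2 scale between 1 and 2 FPKM and of 0.03 at 100 FPKM or more. These errors are for the FPKM ratio without the added 1 FPKM. For the ratios used here they are smaller, most of all in low genes. The share of genes at least 2-fold lower was 7.18% between 5 and 10 FPKM, where counting error was 0.10, and 2.26% at 100 FPKM or more. Among classes other than protein-coding genes, 86 snoRNA genes, which guide the chemical marking of ribosomal RNA and lie mostly within host genes, held 7 higher and 15 lower members, and 45 miRNA genes held 5 and 8. Polyadenylated RNA is a poor measure of such short RNAs, and these models overlap longer genes. The 273 long intergenic RNA genes had a median of -0.19, with 2 higher and 20 lower.

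**Figure D1:**
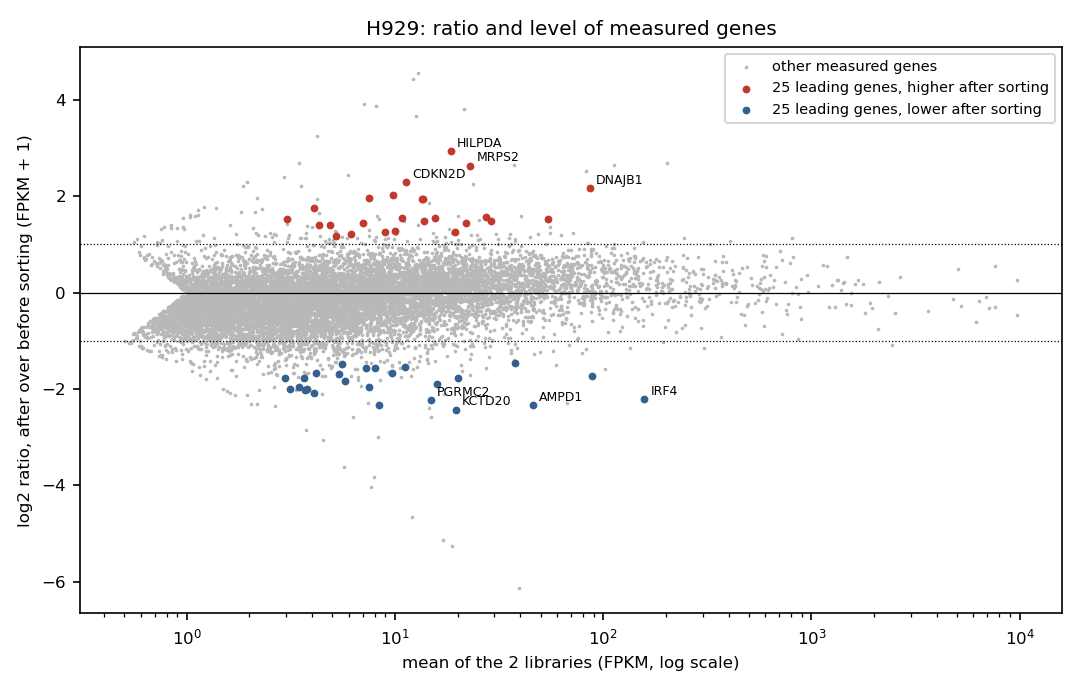
Each point is 1 of the measured H929 genes, with the mean of both libraries in FPKM on a log axis and the log2 ratio, after over before sorting, on the vertical axis; dotted lines mark 2-fold. The 25 leading genes on each side are coloured, the first 4 of each are named, and HILPDA leads the higher side at a ratio of 2.93.

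The authors' deposited table carries its own calls. It marks 954 genes as significant, 177 up and 777 down, and these are exactly the genes with an unadjusted p under 0.05. The largest q-value among them is 0.651, and 49 genes in the authors' deposited table have a q-value under 0.05. Of the genes measured here, 725 are marked in the authors' deposited table (6.54%), 158 up (1.43%) and 567 down (5.12%), while 229 of the marked genes are under 1 FPKM in both libraries. Of the 749 genes at 2-fold or more here, 417 are marked in the authors' deposited table. The test behind those p-values was not given in the sources used here.

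Ratios in H929 went with the base composition and length of the transcripts. Spearman's correlation across protein-coding genes was 0.54 with GC content, -0.36 with transcript length, -0.34 with the span of the gene on the chromosome and -0.13 with the number of exons. These are descriptions across genes, which share their libraries and are not independent replicates. The correlation with GC content was 0.48 among the 5314 protein-coding genes at 5 FPKM or more. GC content and length each carried part of the pattern. With genes divided into 3 equal classes by each property, the long genes of the lowest GC class had a median ratio of -0.60, with 14.8% of them 2-fold lower, and the short ones -0.24, with 3.55% lower. In the highest GC class, the short ones had a median of 0.27, with 3.31% of them 2-fold higher, and the long ones 0.05.

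The start of the coding sequence of a leading gene on each side shows what these compositions look like. CDKN2D, on chromosome 19, has 61.3% GC over a transcript of 1422 bases and stood at 19.5 FPKM after sorting and 3.15 before. FNDC3A, on chromosome 13, has 38.9% GC over 6328 bases and stood at 0.81 FPKM after sorting and 6.07 before. The first 90 coding bases of each lie in 1 exon, at chr19:10568564-10568653 on the minus strand and chr13:49006191-49006280 on the plus strand of GRCh38, from the GENCODE release 29 annotation, and are 76.7% and 41.1% GC; the start codon is in capitals.
CDKN2D: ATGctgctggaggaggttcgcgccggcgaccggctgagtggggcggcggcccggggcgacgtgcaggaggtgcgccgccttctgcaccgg
FNDC3A: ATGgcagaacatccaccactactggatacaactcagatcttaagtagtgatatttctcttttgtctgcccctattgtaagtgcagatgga
These genes were picked as illustrations after their values were seen. Both starts lie within 1 exon, and the transcripts are short and rich in GC for CDKN2D and long and poor in GC for FNDC3A. They are more extreme than the medians of the leading genes of their sides, which are defined below. Those medians were 52.0% GC and 2924 bases on the higher side and 44.7% GC and 4038 bases on the lower side. Some leading genes go further, such as NUDT8 at 67.4% GC and 809 bases and FAM171B at 38.3% GC.

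Chromosomes differed in the same direction as their GC content. Genes on chromosome 13, with a median GC content of 42.1%, had a median ratio of -0.42, those on chromosome 18 -0.38 and those on chromosome 4 -0.35. Genes on chromosome 22 had 0.11 and those on chromosome 19, at 60.7% GC, 0.19. A trend that was cubic in GC content and in the logarithm of length, fitted on protein-coding genes, took up 30.6% of the variance of the ratios. With the trend removed, the medians of the 23 nuclear chromosomes lay between -0.13 and 0.04, the correlation with GC content was 0.01, and the correlation with the level of the gene was 0.15 in place of 0.39. With the trend removed, 260 genes were at least 2-fold higher (2.36% of 11034) and 253 were lower (2.29%). Protein-coding genes, counted once per symbol, made up 127 of the higher and 152 of the lower ones, against 130 and 432 as deposited. The rest are of types that the fit did not use, so their values with the trend removed are less certain. Of the 176 genes higher as deposited, 123 kept their place, and of the 573 lower ones, 196 did. In KMS28BM the correlation with GC content was -0.75, of opposite sign. What the trend comes from was not tested. Medians of gene groups below are given both as deposited and with the trend removed; counts at 2-fold are as deposited unless the trend is named.

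**Figure D2:**
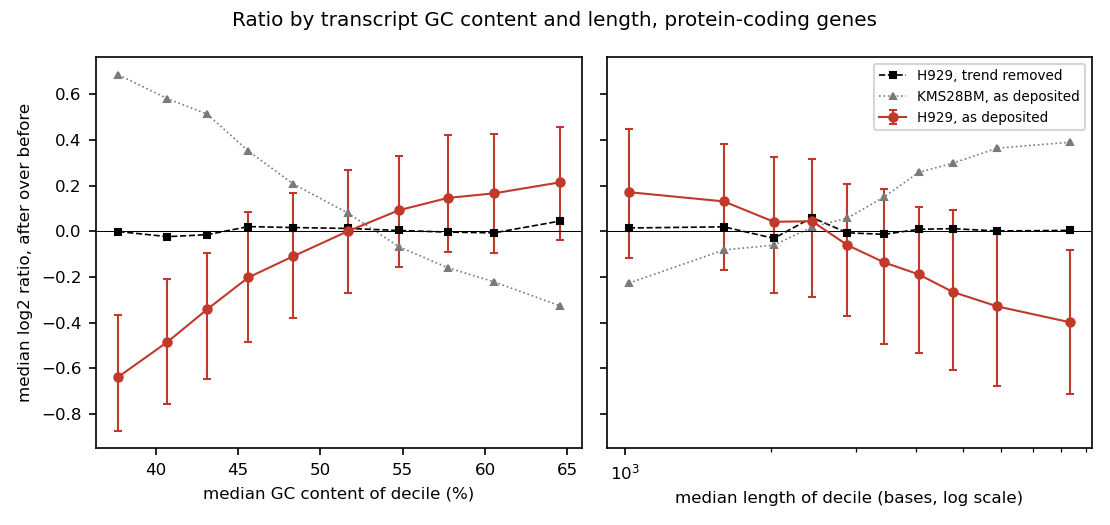
Median log2 ratio, after over before sorting, in deciles of protein-coding genes by GC content (left) and transcript length on a log axis (right); bars span the middle 50% of genes in H929. The H929 median runs between -0.64 and 0.21 over the GC deciles, the trend-removed medians lie near 0, and the KMS28BM medians run the opposite way.

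Leading genes were taken from 3770 protein-coding genes that reached 5 FPKM in either library, with under 20% of their 50-base words found in another gene and with ratios of the same sign as deposited and with the trend removed. They were ranked by the smaller in size of those ratios, and the first 25 on each side were taken. Median GC content was 52.0% among the higher 25, and the median number of estimated fragments behind them was 1170 after sorting and 305 before. It was 44.7% among the lower 25, with medians of 316 fragments after sorting and 1250 before. All 50 are marked in the authors' deposited table, with 3 of the higher and 6 of the lower ones at a q-value under 0.05. Of all 3770 ranked genes, 165 are marked there and 9 have a q-value under 0.05. The marks rest on the same libraries as the ranking and give no independent support.

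The higher genes began with HILPDA, a HIF target whose product blocks lipolysis at lipid droplets, at 33.6 FPKM after sorting and 3.53 before, a log2 ratio of 2.93. MRPS2, a protein of the small mitochondrial ribosomal subunit, stood at 40.2 FPKM after sorting and 5.63 before. The HSP40 co-chaperone DNAJB1 stood at 141 and 30.6 FPKM, CDKN2D, an inhibitor of the cyclin D kinases, at 19.5 and 3.15 FPKM, and the runt transcription factor RUNX3 at 16.3 and 3.27 FPKM, each after and before sorting. With the trend removed, the ratios of these 5 genes lay between 1.98 for RUNX3 and 2.80 for HILPDA.

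Several of the genes that followed act on transcription. MED29, a subunit of the Mediator complex, stood at 12.5 FPKM after sorting and 2.46 before. BHLHE40, a repressor that answers to hypoxia and the circadian clock, stood at 23.6 FPKM after sorting and 7.45 before. LIN52, a subunit of the DREAM complex that represses cell cycle genes in resting cells, stood at 6.73 FPKM after sorting and 1.91 before. These 3 genes had ratios of 1.96, 1.54 and 1.41.

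Receptors and their regulators came next. FGFRL1, a fibroblast growth factor receptor without a kinase domain, stood at 22.2 FPKM after sorting and 5.06 before. CBL, a ubiquitin ligase that marks activated receptor tyrosine kinases for destruction, stood at 5.005 FPKM after sorting and 1.07 before. CBL was the longest of the higher leading genes, at 11231 bases with 45.8% GC, and its ratio was 1.53 as deposited and 1.94 with the trend removed. RNF185 and TRIM4, both ubiquitin ligases, had ratios of 1.44 and 1.39, and ZDHHC18, a protein palmitoyltransferase, 1.54.

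Other higher genes act in mitochondria, DNA repair and the cytoskeleton. TIMM10, a small chaperone of the space between the mitochondrial membranes, stood at 80.7 FPKM after sorting and 27.5 before. APEX1, the main enzyme that cuts DNA at sites without a base, stood at 43.1 FPKM after sorting and 14.8 before. The actin-binding coronin CORO1C, the GTPase RAC3 and the filament protein SEPTIN9 had ratios of 1.26, 1.45 and 1.28. YWHAH, a 14-3-3 adaptor, stood at 41.4 FPKM after sorting and 13.3 before. The other members, C19orf48, NUDT8, TMEM230, PIP4K2C and TSN, had ratios between 1.17 for TSN and 1.94 for C19orf48.

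In KMS28BM the same 25 genes had a median ratio of 0.16, with 14 above 0, 3 at least 2-fold higher and 2 at least 2-fold lower. All 3770 ranked genes had a median of 0.016 in that line, with 1943 above 0, 150 at least 2-fold higher and 23 lower. With the trend of that line removed the median of the 25 was 0.11, and 2 were at least 2-fold higher and 2 lower. The median of all 3770 was then -0.006, with 1848 above 0, 18 at least 2-fold higher and 25 lower. HILPDA stood there at 15.4 FPKM after sorting and 32.7 before, and TMEM230 at 10.3 and 27.1 FPKM. ZDHHC18 stood there at 18.6 FPKM after sorting and 6.91 before, PIP4K2C at 12.7 and 4.93 FPKM and TSN at 8.58 and 2.91 FPKM. DNAJB1, RUNX3 and MED29 had ratios of -0.05, -0.04 and -0.01 in that line.

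The lower genes began with AMPD1, which deaminates AMP, at 14.5 FPKM after sorting and 77.5 before, a log2 ratio of -2.34. KCTD20 stood at 5.47 FPKM after sorting and 33.8 before, and PGRMC2, a membrane protein that carries heme, at 4.53 and 25.1 FPKM. IRF4 stood at 55.1 FPKM after sorting and 260 before, and its ratio was -2.22 as deposited and -1.93 with the trend removed. HMOX1, the enzyme that breaks down heme, stood at 40.3 FPKM after sorting and 137 before, and was among the GC-rich members, at 58.1%.

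Several lower genes control RNA. TCEA1, a factor that restarts stalled RNA polymerase II, stood at 6.15 FPKM after sorting and 25.6 before. YTHDF2 and YTHDF3, cytoplasmic readers of the m6A mark on messenger RNA, stood at 5.22 and 0.65 FPKM after sorting, against 17.2 and 5.60 FPKM before. FYTTD1, an adaptor for messenger RNA export, stood at 0.855 FPKM after sorting and 6.54 before. ZBTB38, a zinc finger protein that binds methylated DNA, stood at 2.10 FPKM after sorting and 14.7 before, and TGIF2, a repressor in TGF-beta signalling, at 2.45 and 8.66 FPKM.

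The remaining lower genes include surface, Golgi and stress proteins. ITGA4, the alpha chain of the integrin that binds fibronectin and VCAM1 in bone marrow, stood at 8.53 FPKM after sorting and 31.7 before. MAN2A1, a mannosidase that trims N-linked sugars in the Golgi, stood at 3.16 FPKM after sorting and 11.4 before, and GOLM2, a Golgi membrane protein, at 0.96 and 7.25 FPKM. SESN2, a leucine sensor that restrains mTORC1, stood at 19.6 FPKM after sorting and 56.0 before, and NDUFA4L2, a hypoxia-induced relative of a respiratory chain subunit, at 1.46 and 6.89 FPKM. IQCN, IFIT3, SEPTIN11, RAPGEF2, RIOK3, KIZ, FAM171B and FNDC3A had ratios between -1.56 for KIZ and -2.004 for FAM171B.

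All 3770 ranked genes, as given above, had a median of 0.016 in KMS28BM, with 1943 above 0, 150 at least 2-fold higher and 23 lower. In that line the lower 25 had a median ratio of 0.74, with 20 above 0, 6 at least 2-fold higher and 0 at least 2-fold lower. The 6 were GOLM2, TGIF2, SEPTIN11, ITGA4, YTHDF3 and MAN2A1, with ratios between 1.02 for GOLM2 and 1.35 for MAN2A1. KCTD20 had a ratio of -0.95 in that line, at 1.69 FPKM after sorting and 4.19 before. Most of the lower 25 are poor in GC, and the GC trend has opposite signs in these lines. With the trend of KMS28BM removed the median was 0.27, with 19 above 0, 0 at least 2-fold higher and 1, KCTD20, lower, and the 6 genes lay between 0.34 for YTHDF3 and 0.99 for MAN2A1.

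**Figure D3:**
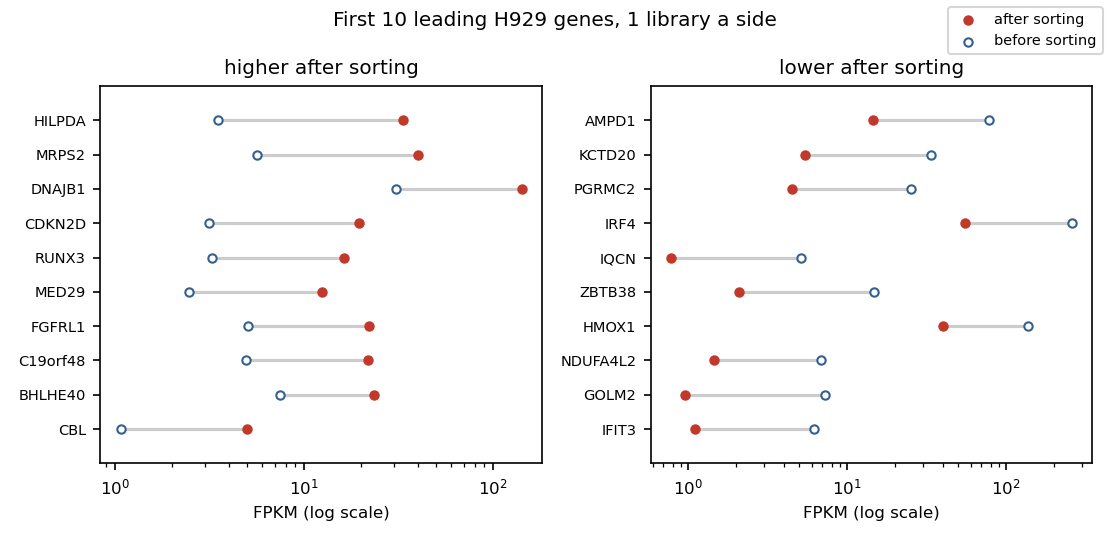
FPKM after (filled) and before (open) sorting on a log axis for the first 10 leading genes on the higher and the lower side, with 1 library a side. On each side the pairs are more than 2-fold apart; IRF4 at 55.1 and 260 FPKM and DNAJB1 at 141 and 30.6 FPKM are the most abundant of their panels.

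With the trend removed, the heat shock list had the highest median of the 111 lists with 8 or more measured genes. Of its 22 measured genes, 6 were at least 2-fold higher and 0 lower, also with the trend removed, and the medians were 0.36 as deposited and 0.44 with the trend removed. SERPINH1, the collagen chaperone of the endoplasmic reticulum, stood at 10.8 FPKM after sorting and 4.23 before and completes that set of 6 with DNAJB1, HSPA8, HSPA6, HSPA1A and HSPA1B. HSPA6, HSPA1A and HSPA1B share 45.5%, 71.3% and 73.5% of their words with other genes, so their values are uncertain. HSP90AA1, the inducible cytosolic HSP90, stood at 19.6 FPKM after sorting and 26.9 before, and HSPA4, an exchange factor for HSP70, at 13.98 and 23.8 FPKM. The 8 subunits of the CCT chaperonin, which folds actin and tubulin, had ratios between -0.02 for CCT8 and 0.61 for CCT7, with 0 at 2-fold and a median of 0.26, or 0.44 with the trend removed.

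Heat shock genes are switched on by HSF1 at repeats of the letters GAA and their reverse complement. The motif GAA, TTC, GAA, with 2 bases of any kind (NN) between its 3 units, was searched on both strands in the 250 bases before the transcription start of 7557 measured protein-coding genes with a RefSeq promoter (GRCh38.p14), and 20 of them held it (0.265%). Of 95 such promoters of genes at least 2-fold higher, 3 held it, those of HSPA6, HSPA8 and SERPINH1, and of 347 promoters of genes at least 2-fold lower, 0 did. The promoters of DNAJB1, HSPA1A and HSPA1B were also among the 95 and did not hold it. The other genes with the motif had ratios between -0.72 for ABHD3 and 0.62 for MPND. The motif is shown in capitals in 100 bases of each of the 3, at chr1:161524423-161524522 on the plus strand for HSPA6, chr11:123062287-123062386 on the minus strand for HSPA8 and chr11:75562134-75562233 on the plus strand for SERPINH1.
HSPA6: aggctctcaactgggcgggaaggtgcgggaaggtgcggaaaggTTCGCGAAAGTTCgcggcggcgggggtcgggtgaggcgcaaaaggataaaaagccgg
HSPA8: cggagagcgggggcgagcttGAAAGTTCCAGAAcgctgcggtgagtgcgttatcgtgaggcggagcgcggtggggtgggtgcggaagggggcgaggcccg
SERPINH1: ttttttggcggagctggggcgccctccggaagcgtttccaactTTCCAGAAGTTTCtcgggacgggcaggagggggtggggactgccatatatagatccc
The motif begins 74 bases before the start in HSPA6, 230 in HSPA8 and 76 in SERPINH1, and in HSPA6 and SERPINH1 it reads on the opposite strand. HSPA6 stood at 24.3 FPKM after sorting and 1.0003 before and shares words with a near copy, and HSPA8 stood at 337 and 153 FPKM. A match describes these letters, not binding. In all, 5 motifs were searched.

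Interferon-stimulated genes lay on the other side. Of 37 listed members, 19 were measured. All 19 had ratios below 0, 4 were at least 2-fold lower, and the median was -0.80, or -0.64 with the trend removed. A gene that reaches 1 FPKM only before sorting has a ratio below 0 by that rule, so the filter can add to this count. With no filter the median was -0.43. The measured members include the transcription factor IRF7, at 4.74 FPKM after sorting and 10.9 before, and ISG15, a ubiquitin-like protein, at 50.2 and 99.5 FPKM. BST2, which tethers viruses to the cell surface, stood at 285 FPKM after sorting and 292 before. The interferon response motif, GAAA repeated after 2 bases of any kind (NN) and searched on both strands of the same 250 bases, was in 2.25% of all 7557 promoters, in 4.03% of the 347 of genes at least 2-fold lower and in 1.05% of the 95 of genes at least 2-fold higher. IFIT3, at 1.10 FPKM after sorting and 6.17 before, holds it at 2 places within 100 bases of its promoter, at chr10:89327796-89327895 on the plus strand, shown with both sites in capitals on the opposite strand to the motif as spelled.
IFIT3: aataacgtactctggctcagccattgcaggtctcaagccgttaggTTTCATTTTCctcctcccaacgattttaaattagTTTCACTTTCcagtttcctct

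Genes of growth and DNA synthesis were mostly above 0, by less than 2-fold. Of 44 genes for replication licensing and DNA polymerases, 29 had ratios above 0 and 37 did with the trend removed, with medians of 0.26 and 0.41, and 0 were at 2-fold in either direction. MCM7, a subunit of the replicative helicase, stood at 105 FPKM after sorting and 56.1 before. LIG1, which joins Okazaki fragments, stood at 14.03 FPKM after sorting and 7.19 before, and CDC45, which starts the helicase, at 19.4 and 10.6 FPKM. RFC1, of the clamp loader, had the lowest ratio of the group at -0.95, with 0.95 FPKM after sorting and 2.77 before.

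Nucleotide synthesis genes had a median of like size, with AMPD1 far below it. Of 28 genes, 22 had ratios above 0, with a median of 0.32, or 0.35 with the trend removed, and 1 was 2-fold higher and 1 lower. PRPS1, which makes the sugar phosphate for all nucleotides, stood at 43.5 FPKM after sorting and 23.9 before, CAD, which starts pyrimidine synthesis, at 23.7 and 14.4 FPKM, and CTPS1, which makes CTP, at 8.12 and 4.69 FPKM. RRM2, a subunit of ribonucleotide reductase, stood at 101 FPKM after sorting and 42.3 before, with over 20% of its words shared with another gene.

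Of 28 core MYC targets, 22 had ratios above 0, with a median of 0.40, or 0.37 with the trend removed, and 2 were at least 2-fold higher and 0 lower. Those 2, the translation helicase EIF4A1 at 43.3 FPKM after sorting and 18.001 before and the kinase CDK4 at 61.7 and 27.3 FPKM, share over 20% of their words with other genes. NOP16, a nucleolar protein, stood at 32.6 FPKM after sorting and 16.5 before, and FBL, which methylates ribosomal RNA, at 252 and 152 FPKM. NPM1, an abundant nucleolar protein, was among those below 0, at 108 FPKM after sorting and 152 before. Of 54 ribosome biogenesis genes, 34 were above 0, with a median of 0.30 both as deposited and with the trend removed, and NOP58, at 4.08 FPKM after sorting and 10.3 before, was 1 of 2 at least 2-fold lower, both under 2-fold with the trend removed.

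RNA processing and protein import into mitochondria had medians of like size. The 50 spliceosome core genes had a median of 0.38, or 0.33 with the trend removed, with 39 above 0 and 0 at 2-fold, or 3 higher with the trend removed. SNRPD2, of the ring of Sm proteins, stood at 154 FPKM after sorting and 88.6 before, and SF3B1, which recognises the branch point, at 7.61 and 14.97 FPKM. The 30 TIM and TOM import genes had a median of 0.28, or 0.32 with the trend removed, with 21 above 0 and TIMM10 at 2-fold. The 78 mitochondrial ribosomal proteins had a median of 0.22, or 0.24 with the trend removed, with 57 above 0 and 3 at least 2-fold higher, MRPS2, MRPL4 at 51.2 FPKM after sorting and 23.9 before, and MRPL53, which shares words with another gene. MRPL4 and MRPL53 were at 0.79 and 0.82 with the trend removed.

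Energy and protein breakdown machines also had medians above 0, as abundant genes had in general. All measured genes between 50 and 100 FPKM in their higher library had a median of 0.23, or 0.14 with the trend removed. Those at 100 FPKM or more had 0.18, or 0.11 with the trend removed. Neither these groups nor those of growth and RNA processing above were compared with genes of like level. The respiratory complex I list had 37 of 46 genes above 0 and a median of 0.18, or 0.22 with the trend removed. NDUFA4L2, which is on that list by its symbol, was its only gene at 2-fold, lower. ATP synthase had 14 of 18 above 0 and a median of 0.21, or 0.30 with the trend removed, with the catalytic subunit ATP5F1B at 475 FPKM after sorting and 306 before. The proteasome had 38 of 50 above 0, a median of 0.21, or 0.25 with the trend removed, and 0 at 2-fold, with PSMD2 of the regulatory cap at 119 FPKM after sorting and 66.4 before. The tubulins had a median of 0.43 over 12 genes, which was 0.15 with the trend removed, and 3 were at least 2-fold higher, or 2 with the trend removed. TUBB4A stood at 7.71 FPKM after sorting and 2.60 before, while TUBB and TUBA1B share words with other tubulin genes.

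For other RNA-binding and transport families the sign depended on the trend. The 22 hnRNP genes had a median of -0.01 as deposited and 0.35 with the trend removed, with HNRNPAB at 148 FPKM after sorting and 77.7 before. The 27 nuclear pore genes had medians of -0.04 and 0.28, and NUP62, a protein of the central channel, stood at 27.5 FPKM after sorting and 12.5 before. The cohesin and condensin genes, which shape chromosomes, showed the largest such shift, with a median of -0.62 over 20 genes as deposited and 0.03 with the trend removed. STAG2, a cohesin subunit, stood at 1.10 FPKM after sorting and 3.91 before, and NCAPD2, a condensin subunit, at 38.4 and 23.7 FPKM. The median GC content of that group was 40.8%. With trimmed-mean scaling alone, the hnRNP and nuclear pore medians were also above 0, at 0.23 and 0.20, and the cohesin and condensin median was -0.49.

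**Figure D4:**
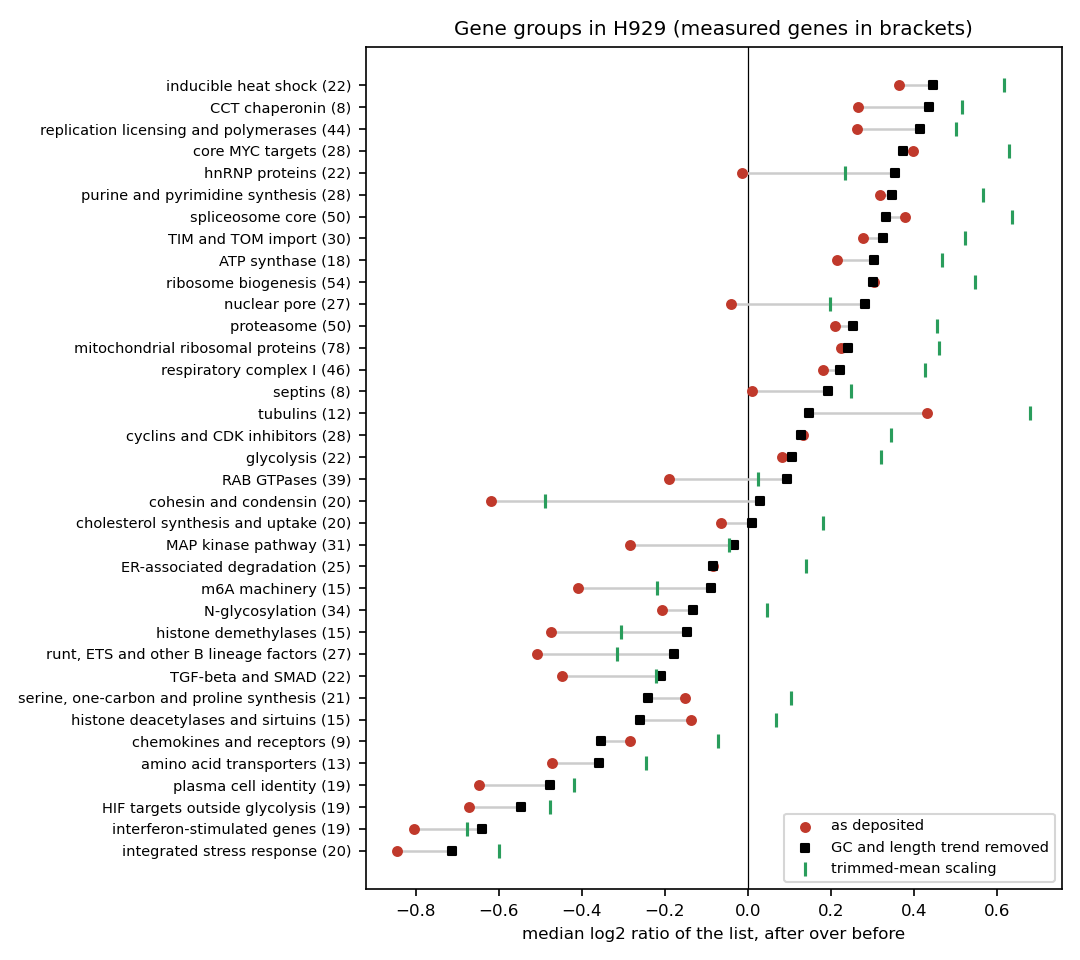
Median log2 ratio, after over before sorting, of 36 gene groups as deposited (circles), with the GC and length trend removed (squares) and after trimmed-mean scaling (green bars), with the number of measured genes in brackets. Heat shock, chaperonin and replication groups are at the upper end, the integrated stress response and interferon groups at the lower end, and the cohesin and hnRNP groups move most when the trend is removed.

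ATF4 is known to drive many genes for making and importing amino acids. The integrated stress response list, with 20 measured genes, had a median of -0.84, or -0.71 with the trend removed, with 7 at least 2-fold lower and DDIT4 higher; with the trend removed 5 were lower. Of 13 amino acid transporters, 12 had ratios below 0 and 4 were at least 2-fold lower, or 2 with the trend removed, with medians of -0.47 and -0.36. SLC38A1 and SLC38A2, which take up glutamine and alanine, stood at 3.98 and 7.35 FPKM after sorting, against 14.5 and 21.2 FPKM before. SLC7A11, the cystine importer, stood at 0.41 FPKM after sorting and 2.55 before, and SLC6A9, a glycine transporter, at 4.03 and 9.82 FPKM. The leucine transporter pair SLC7A5 and SLC3A2 stood at 116 and 168 FPKM after sorting, against 168 and 157 FPKM before, so its light chain was lower and its heavy chain was not.

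The synthesis side was divided. Of 21 genes for serine, one-carbon and proline synthesis, 3 were at least 2-fold lower and 0 higher, with a median of -0.15, or -0.24 with the trend removed, and 0.10 with trimmed-mean scaling. PSAT1, of the serine pathway, stood at 43.6 FPKM after sorting and 93.1 before, CTH, which makes cysteine, at 9.77 and 25.7 FPKM, and ALDH1L2, a mitochondrial folate enzyme, at 0.87 and 3.72 FPKM. The cytosolic folate enzyme MTHFD1 stood at 12.6 FPKM after sorting and 7.49 before, on the other side. After removal of the trend, 1 gene of the list was at least 2-fold lower and 1 higher. The composite site that ATF4 binds, searched as TGATG, 1 base of any kind and AA, was in 1.2% of all 7557 promoters, in 1.15% of those of genes at least 2-fold lower and in 0 of those of genes at least 2-fold higher.

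HIF targets lay on both sides. Of 19 genes outside glycolysis, 4 were at least 2-fold higher and 5 lower, with a median of -0.67, or -0.55 with the trend removed. HILPDA, DDIT4 and BHLHE40 were higher, with ADM, a vasodilating peptide, at 68.3 FPKM after sorting and 28.8 before. DDIT4, an inhibitor of mTORC1, stood at 142 FPKM after sorting and 23.8 before and shares over 20% of its words with another gene. On the lower side, P4HA1, a collagen prolyl hydroxylase, stood at 30.2 FPKM after sorting and 87.8 before. EGLN1, the oxygen sensor that marks HIF for destruction, stood at 4.56 and 13.7 FPKM, and PDK1, a kinase that inhibits pyruvate dehydrogenase, at 3.71 and 10.1 FPKM. BNIP3L, a mitophagy receptor, stood at 3.64 FPKM after sorting and 11.7 before, and ERO1A, which forms disulfide bonds, at 3.45 and 9.58 FPKM. With the trend removed, 3 genes of the list were at least 2-fold higher and 1 was lower. The core letters of the HIF site, ACGTG, were in 28.4% of the promoters of genes at least 2-fold higher, in 23.9% of those of genes at least 2-fold lower and in 24.9% of all. The CCAAT box, bound by NF-Y, was in 47.4%, 34.6% and 36% of the same sets. The 22 glycolysis genes had a median of 0.08, or 0.10 with the trend removed, with 1 at 2-fold, PFKFB4, a regulator of glycolytic flux, at 5.67 FPKM after sorting and 14.2 before.

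Genes of plasma cell identity had a median of -0.65 over 19 members, or -0.48 with the trend removed, with IRF4, ELL2 and CD38 at least 2-fold lower as deposited and IRF4 alone with the trend removed, where ELL2 was at -0.92 and CD38 at -0.64. ELL2, an elongation factor that favours the secreted form of immunoglobulin, stood at 10.3 FPKM after sorting and 31.3 before. Among 27 runt, ETS and other B lineage factors, 24 had ratios below 0 and 5 were at least 2-fold lower, with RUNX3 alone at 2-fold higher. MEF2C, a B cell survival factor, stood at 5.54 FPKM after sorting and 12.5 before, and BACH1, a heme-sensing repressor, at 0.71 and 2.51 FPKM. MEF2B, FOXO3 and GABPA, the other 3, share over 20% of their words with other genes. The median of these factors was -0.51 as deposited and -0.18 with the trend removed, and MEF2B was then the 1 factor at least 2-fold lower.

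Chemokine receptors, through which cells home to tissue, had 9 measured members with their ligands, with a median of -0.28, or -0.35 with the trend removed. Of these, 3 were at least 2-fold lower and 0 higher, or 2 lower with the trend removed, and the lowest ratio was -1.33. Among the 3, CCR1 stood at 34.3 FPKM after sorting and 80.4 before and CCR3 at 0.33 and 1.67 FPKM. CCR3 reached 1 FPKM only before sorting and was at -0.98 with the trend removed. CXCR4, the receptor that retains plasma cells in marrow, stood at 4.22 FPKM after sorting and 5.36 before, and the ligands CCL3 and CCL5 at 283 and 147 FPKM after sorting, against 310 and 134 FPKM before. In the TGF-beta pathway, 16 of 22 genes had ratios below 0, with a median of -0.45, or -0.21 with the trend removed. ACVR1B, a type I receptor, stood at 1.35 FPKM after sorting and 4.81 before, TGFB1, the ligand, at 180 and 106 FPKM and ID3, a target of the related BMP branch, at 26.8 and 10.8 FPKM.

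N-linked glycosylation is central to antibody secretion. Of 34 measured genes, 4 were at least 2-fold lower and 0 higher, with a median of -0.21, or -0.13 with the trend removed, and 0.05 with trimmed-mean scaling. MAN1C1 alone was at least 2-fold lower with the trend removed. STT3B, a catalytic subunit of the oligosaccharyltransferase, stood at 15.7 FPKM after sorting and 40.9 before. MGAT5, which adds branches in the Golgi, stood at 8.48 FPKM after sorting and 20.5 before, and the mannosidases MAN1A1 and MAN1C1 at 11.9 and 8.30 FPKM after sorting, against 26.2 and 19.5 FPKM before. OST4, a small subunit of the same transferase as STT3B, stood at 473 FPKM after sorting and 277 before. The 25 genes of endoplasmic reticulum-associated degradation had a median of -0.08 both as deposited and with the trend removed, with 3 at least 2-fold lower as deposited and 0 with the trend removed. SEL1L, the scaffold of the HRD1 ligase, stood at 6.64 FPKM after sorting and 19.5 before, while VCP, the ATPase that extracts the substrate, stood at 75.9 and 51.9 FPKM.

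Some families held members far apart. Of 8 septins, SEPTIN9 was higher, at 14.6 FPKM after sorting and 5.44 before, while SEPTIN11, at 2.48 and 12.5 FPKM, and SEPTIN7, at 0.85 and 2.94 FPKM, were lower; SEPTIN7 was at -0.53 with the trend removed. The septin median was 0.01, or 0.19 with the trend removed. Of 39 RAB GTPases, which route vesicles, RAB5B, RAB7A and RAB3A were at least 2-fold higher, RAB3A at 0.89 with the trend removed, and the median was -0.19, or 0.09 with the trend removed. RAB5B stood at 5.23 FPKM after sorting and 1.82 before. RAB5A, the near relative of RAB5B on early endosomes, stood at 3.40 FPKM after sorting and 6.97 before. Among 28 cell cycle regulators, CDKN2D and CDK4 were at least 2-fold higher and CDK6, RB1 and CDKN2B lower, with a median of 0.13 both as deposited and with the trend removed. The last 3 were under 2-fold with the trend removed, between -0.61 for RB1 and -0.82 for CDKN2B. CDK6, which shares its cyclin partners with CDK4, stood at 3.45 FPKM after sorting and 11.1 before, and the cyclin CCND2 at 15.1 and 30.8 FPKM. RB1, the substrate of both kinases, stood at 1.21 FPKM after sorting and 4.35 before, and CDKN2B, an inhibitor of the same family as CDKN2D, at 4.18 and 10.4 FPKM.

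Chromatin and RNA mark families were mostly lower as deposited and nearer 0 with the trend removed. The 15 histone demethylases had a median of -0.47, or -0.15 with the trend removed, with KDM7A at 0.83 FPKM after sorting and 5.19 before. The 15 histone deacetylases and sirtuins had a median of -0.14, which was -0.26 with the trend removed and 0.07 with trimmed-mean scaling, and 0 were at 2-fold. In the m6A machinery, 15 genes had a median of -0.41, or -0.09 with the trend removed. The reader YTHDF1 stood at 19.2 FPKM after sorting and 18.7 before, unlike YTHDF2 and YTHDF3, and the methyltransferase METTL3 at 6.21 and 6.30 FPKM. Of 31 MAP kinase pathway genes, 6 were at least 2-fold lower, among them the exchange factor SOS1 at 0.47 FPKM after sorting and 2.96 before and the GTPase NRAS at 10.7 and 23.5 FPKM. None of the 31 was at 2-fold with the trend removed, and the median of that pathway was then -0.03, against -0.28 as deposited. In cholesterol synthesis and uptake, 20 genes had a median of -0.06, or 0.01 with the trend removed and 0.18 with trimmed-mean scaling.

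**Figure D5:**
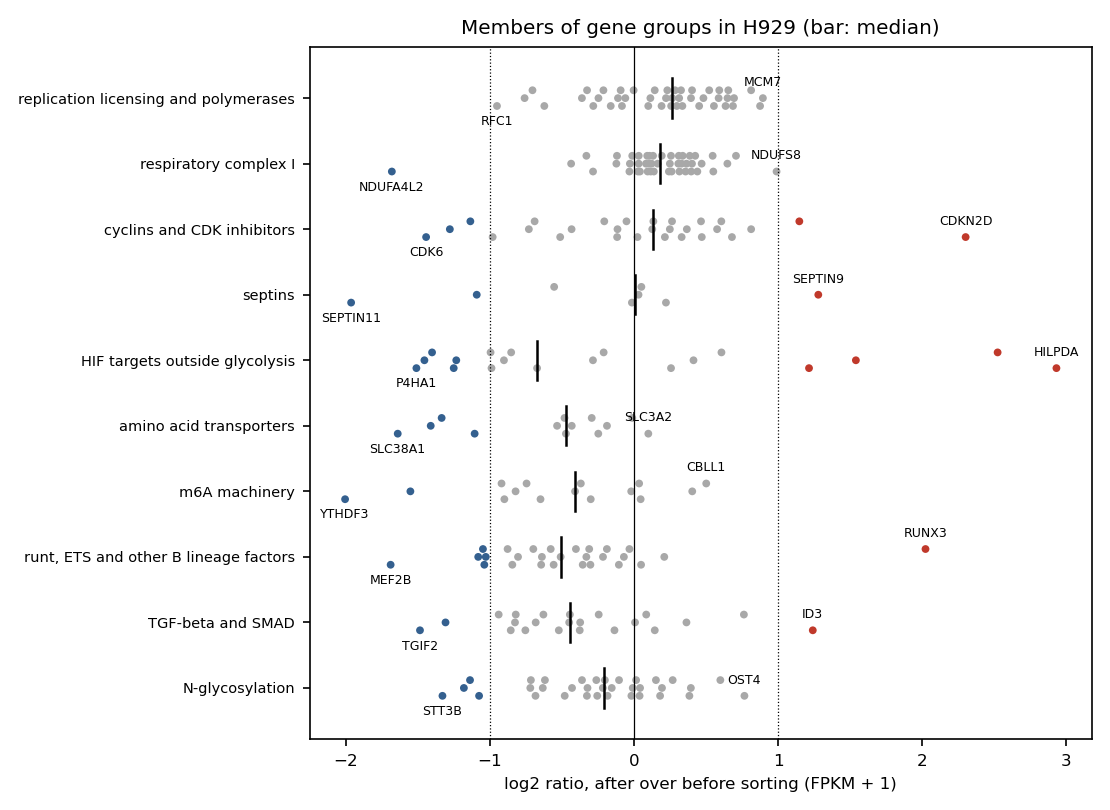
Each point is a measured gene of the named group, with its log2 ratio after over before sorting on the horizontal axis; red marks at least 2-fold higher, blue at least 2-fold lower, and the black bar is the group median. HIF targets spread between P4HA1 at -1.51 and HILPDA at 2.93, while replication genes lie between RFC1 at -0.95 and MCM7 at 0.90.

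The pathway annotation in the deposited table groups genes independently of the lists above. Over 190 KEGG pathways with 15 or more measured genes, medians lay between -0.39 and 0.34 as deposited and between -0.34 and 0.40 with the trend removed. DNA replication was at the upper end with the trend removed, at 0.40 over 34 genes, followed by mismatch repair at 0.36 over 21, the citrate cycle at 0.35 over 28, base excision repair at 0.34 over 32 and nucleotide excision repair at 0.33 over 41. Neuroactive ligand-receptor interaction was at the lower end, at -0.34 over 38 genes, followed by protein digestion at -0.22 over 15 and cytokine-cytokine receptor interaction at -0.20 over 62. With trimmed-mean scaling in place of the trend these 3 were at 0.02, 0.07 and 0.05. Jak-STAT signalling, which carries interferon and interleukin signals, had a median of -0.27 over 64 genes, or -0.15 with the trend removed, with 0 at least 2-fold higher and 10 lower, or 4 lower with the trend removed. Pathways share genes, so these medians are not independent of each other or of the groups above.

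The most abundant protein-coding genes were mitochondrially encoded. MT-CO2, a subunit of cytochrome c oxidase, stood at 8221 FPKM after sorting and 11287 before, MT-CO1 at 6818 and 8410 FPKM and MT-CYB, of complex III, at 3155 and 4128 FPKM. MT-CO3, MT-ATP8, MT-ND1, MT-ND2, MT-ND4 and MT-ND4L, the other mitochondrial members of the 10 most abundant, had ratios between -0.61 for MT-ATP8 and -0.09 for MT-ND1. GAPDH, the glycolytic enzyme often used as a reference, was the nuclear gene among those 10, at 5933 FPKM after sorting and 4200 before, a ratio of 0.50. With trimmed-mean scaling MT-ND1, MT-ND4 and MT-ND4L turned above 0, at 0.17, 0.09 and 0.13, and with the trend removed MT-ATP8 and MT-ND4L did, at 0.10 and 0.22. The last 2 have 207 and 297 bases, against a median of 1017 in the lowest length decile. They lie at the edge of the fit, where the trend is uncertain.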

How the data were processed

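Each line had 1 library after and 1 before sorting, grouped by the sample labels. The deposited values are FPKM, per the file headers, with undetected genes at a floor of 0.0001. The authors' deposited fold ratio is the quotient of both FPKM values and the deposited log2 value its logarithm; p-values and q-values were also deposited, and the authors' test was not given in the sources used here. Bowtie 0.12.2, HISAT2 2.0 and StringTie 1.3.0 are named, per the submitters' processing notes, with no role. The build named there, mm8, belongs to mouse, while the gene IDs are human; with the human build also not given, coordinates come only from GENCODE 29 and RefSeq.

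Ratios used a pseudocount of 1 FPKM and a filter of 1 FPKM in either library. GC content and length are those of the longest basic coding transcript in GENCODE release 29 (58394 IDs matched; 99.6% of measured genes had both). The trend is additive and cubic in GC content and log2 length and was checked on simulated data. Depth was read from the steps of FPKM times length in genes with 1 transcript. Standard errors cover counting error only and are for the ratio without a pseudocount. Words of 50 bases were compared on either strand, and genes with 20% or more shared, and read-through genes, are uncertain because estimates can be split between copies. Gene groups held 114 lists by symbol, without read-through genes. Members and lists were chosen with earlier results of these data known, and some lists were corrected for members whose symbol but not function matched after values were seen; none gives independent support. Genes were named as the 25 leading on each side, up to 4 at each end of a described list, the 10 most abundant and the cell type markers; a rule for genes at 5 FPKM or more in 1 library and under 0.5 in the other named 0 genes. A few genes that these rules name are not reported here. Other members are examples chosen after their values were seen. Alternatives were 2 pseudocounts, 2 filters, 3 scalings, the trend, unshared protein-coding genes and 2 thresholds. The trimmed mean dropped 30% of ratios and 5% of levels at each end. Tools were Python 3.11.15 with pandas 2.3.3, numpy 2.4.6, matplotlib 3.10.9 and SciPy 1.17.1.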

Additional observations from a re-analysis of the deposited data

Results flagged for a closer look

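The sign of the relation between ratio and GC content differed between the lines: Spearman's correlation was 0.54 in H929 and -0.75 in KMS28BM, across protein-coding genes of 1 pair of libraries each, and this difference was not tested.

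Of the 50 leading H929 genes, 8 were at least 2-fold apart in the opposite direction in KMS28BM, which was not tested either. The log2 ratios of HILPDA were 2.93 in H929 and -1.04 in KMS28BM, and those of TMEM230 were 1.26 and -1.31. The other 6 were lower in H929 and higher in KMS28BM. GOLM2 had -2.08 in H929 and 1.02 in KMS28BM, TGIF2 -1.48 and 1.03, SEPTIN11 -1.96 and 1.04, ITGA4 -1.78 and 1.11, YTHDF3 -2.004 and 1.04, and MAN2A1 -1.57 and 1.35. With the trend in GC content and length removed in each line, HILPDA and TMEM230 were at -1.015 and -1.58 in KMS28BM, and these 6 lay between 0.34 and 0.99 there, under 2-fold.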

How the results depend on the processing

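No paired analysis was possible because each group holds 1 library, and no library could be left out. All values are descriptions of 1 pair of libraries whose labels and series title appear to disagree, and depth limits genes near 1 FPKM most. The counts of 176 higher and 573 lower genes were 327 and 1515 with a pseudocount of 0.1 FPKM, 60 and 79 with 5 FPKM, 376 and 328 with trimmed-mean scaling, and 83 and 362 among protein-coding genes with little shared sequence. Lower genes numbered 309 when 5 FPKM was required and 253 with the trend removed. Thresholds of 1.5-fold and 4-fold gave 820 and 2079, and 23 and 36. The median of all genes was 0 with no filter, 0.031 when 5 FPKM was required and 0.10 with trimmed-mean scaling. The correlation with GC content was 0.37 with no filter and 0.012 with the trend removed, by construction of that fit; under the other alternatives it lay between 0.48 and 0.57. The cohesin and condensin median of -0.62 was 0.28 when 5 FPKM was required and 0.029 with the trend removed. Of 36 list medians, 12 moved by more than 0.1 with a pseudocount of 5 FPKM and 9 with no filter. With the trend removed 18 moved without a change of sign from a median of 0.25 or more in size, and all 36 moved with trimmed-mean scaling. The HIF target median of -0.67 was -0.05 with no filter, and the interferon median of -0.80 was -0.43. The 50 leading genes kept their direction under the 3 scalings; under the other alternatives their direction was fixed by how they were chosen or by the ratio itself. With a pseudocount of 5 FPKM, 18 of them were under 2-fold. The cause of the other shifts was not tested.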
